A study of Drosophila melanogaster with 3 samples.

Results

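The cells described are the α'/β' Kenyon cells (KCs) of the fly mushroom body, picked from droplet-based single-cell RNA-seq by the counts of their marker genes. They were 381 of 8321 KCs, among 15144 barcodes that held at least 1000 unique transcript counts (UMIs) with at most 20% of them from mitochondrial genes. A barcode was a KC when prt, ey, Dop1R2, mub, sNPF and dac together took at least 0.5% of its UMIs. It was an α'/β' cell when CG8641, DAT, Fili and Lac summed to at least 3 UMIs and to more than 2 times the larger of a γ sum (ab, Imp, GstD11, CG32392, CAH2) and an α/β sum (crb, SP1173, Lgr1, rk, Pde6, CG43759). The same form of rule gave 4959 γ and 2805 α/β cells for comparison, and 176 KCs met none of the rules.

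The study asked how loss or block of the serotonin transporter changes transcription in KCs, and there were 3 libraries, 1 to each group. One pooled dSERT4 with dSERT16 flies at day 0 of adult life (the dSERT4/dSERT16 pool). Another pooled dSERT-TMKO with WT flies at the same age (the early dSERT-TMKO/WT library). The last held flies aged 4 to 6 days, of dSERT-TMKO and WT with others fed citalopram, a serotonin reuptake inhibitor (CIT), or its vehicle (VEH), and is called the day 4 to 6 pool. Values are given in that order throughout. dSERT16 is a deletion at the 5' end of SerT left by excision of a P element and dSERT4 is its matched control, dSERT-TMKO is a CRISPR deletion with a frameshift in the coding part, and WT was derived from w1118. Flies of all groups carried Mef2(P247)-gal4 driving UAS-nls.GFP, with chromosome 3 from 1 of several wild-type strains. In the CIT and VEH flies, 1 copy of the chromosome that carries SerT also came from such a strain. GFP-positive cells were sorted from pooled central brains. Per the study, the Mef2(P247)-gal4 driver labels α'/β' cells less well than α/β or γ cells. Cells were not assigned to genotypes here, so no genotype or drug comparison was made, and each library mixes them.

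KCs are the intrinsic neurons of the mushroom body and are made in the order γ, α'/β', α/β from the same neuroblasts. Most receive olfactory input from projection neurons in the calyx, and each sends an axon into lobes where dopamine neurons write memories and output neurons read them. α'/β' cells send a branched axon into the α' and β' lobes and are known for their part in acquiring and stabilising odour memories. All KCs release acetylcholine, and dopamine and serotonin act on them through G protein-coupled receptors that raise or lower cAMP.

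The rule used the marker sums, so the levels of those genes describe the selection and are no finding. Among members the α'/β' sum had a median of 13.5, 26.0 and 22.0 UMIs, against a minimum of 3. Just inside the count threshold, 2, 0 and 1 members had a sum of exactly 3, and just outside it 1, 0 and 0 KCs had a sum of 2 with the same dominance. Just inside the dominance threshold 7, 5 and 1 members exceeded the larger other sum by at most 3 times, and just outside it 10, 12 and 7 KCs exceeded it by 1 to 2 times. In 87, 44 and 75 members neither other sum held a single UMI. The median share of UMIs from the 6 KC genes was 1.04, 0.953 and 1.15% in members against 1.70, 1.52 and 1.64% in γ cells, and 25, 20 and 9 members lay between 0.5% and 0.75%, close to the KC threshold. Of those 6 genes, sNPF, the precursor of short neuropeptide F, was at 107, 8.21 and 32.3 UMIs per 1000000 UMIs of the class and library (CPM) in members, at 3651, 2756 and 3042 CPM in γ cells and at 1875, 2036 and 2076 CPM in α/β cells.

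To describe how far the 4 markers occur together, each was read in KCs chosen by the other 3. CG8641 (FBgn0035733, arm 3L, 7058930 to 7077462, minus strand) was at 2428, 2256 and 1836 CPM in cells chosen without it, against 35.0, 32.3 and 42.3 CPM in γ cells and 10.2, 4.64 and 14.1 CPM in α/β cells. DAT (FBgn0034136, arm 2R, 16558567 to 16565238, minus strand), the dopamine transporter, was at 739, 624 and 560.2 CPM, and in the other classes it did not pass 2.40 CPM. For both genes every value in α'/β' cells lay far above all values of the other classes. Fili (FBgn0085397, arm 2R, 21872030 to 21946259, plus strand) was at 218, 246 and 182 CPM and Lac (FBgn0010238, arm 2R, 12453190 to 12465630, plus strand), an immunoglobulin-domain adhesion protein, at 251, 192 and 275 CPM, with 9.37 CPM as the highest value of either gene in the other classes. All coordinates are on BDGP6, release 6 of the fly genome. All 4 markers were thus high in cells chosen by the other 3. The 4 genes were taken as joint markers with earlier results of these data known. The values therefore describe their joint occurrence and are no independent check of the label.

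**Figure D1:**
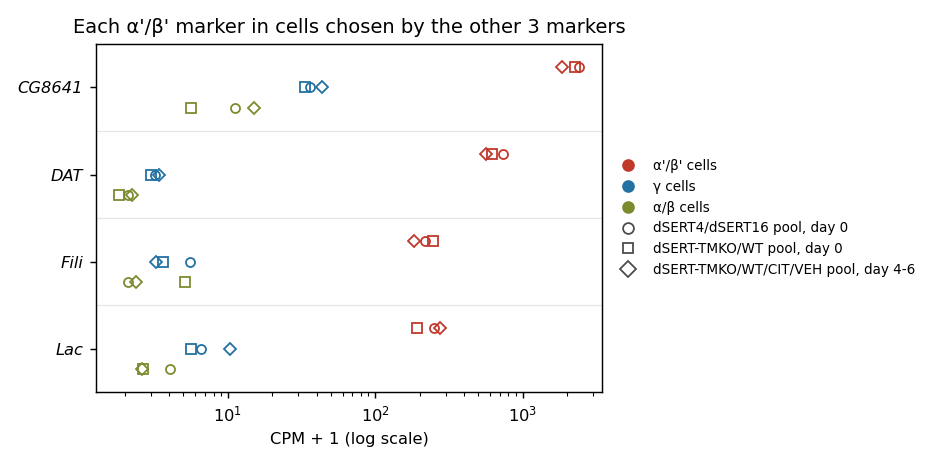
Level of each of the 4 α'/β' marker genes (CPM + 1, log axis) in KCs assigned without that gene, by class (colour) and library (symbol). For all 4 genes the 3 α'/β' points lie to the right of every γ and α/β point.

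α'/β' cells were a small share of the sorted KCs in every pool. They were 162 of 3046 KCs (5.32%, exact Clopper-Pearson 95% interval 4.55 to 6.18%), 105 of 2334 (4.50%, 3.69 to 5.42%) and 114 of 2941 (3.88%, 3.21 to 4.64%). The intervals cover counting error only, neighbouring shares overlap, and with 1 library to a pool the order of the shares has no replicate check. Since the rule reads counts, cells were also thinned to 2000 UMIs each, and the shares were then 5.73%, 4.05% and 3.63%. A KC threshold of 1% lowered the shares to 3.16%, 2.33% and 3.01%, and leaving CG8641 out of the sum lowered them to 3.55%, 3.34% and 3.40%. The shares are those of the sort, whose driver favours the other classes.

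Members had a median of 3834, 7801 and 7624 UMIs and 1430, 2191 and 2241 genes per cell, against 3205, 7571 and 8283 UMIs in γ and 3489, 5764 and 6154 UMIs in α/β cells, and they summed to 708948, 853058 and 898028 UMIs. KCs were 2334 of the 8849 barcodes kept from the early dSERT-TMKO/WT library, against 3046 of 3299 and 2941 of 2996 in the others, and UMIs of glia markers were highest there in every KC class. The 8 glia markers summed to 214, 1594 and 82.4 CPM in members, to 195, 2114 and 65.6 CPM in γ cells and to 166, 1476 and 38.0 CPM in α/β cells, and with predicted doublets removed the mean over libraries in members went from 630.4 to 329 CPM. In members nrv2 alone gave 192, 889 and 75.7 CPM of the glia marker sums. In the early dSERT-TMKO/WT library 77.8% of its UMIs were in the top 10% of member cells. The 4 markers of blood or fat cells were also highest in the early dSERT-TMKO/WT library, at 11.3, 352 and 21.2 CPM in members. Of 8 markers of other neurons, 6 were at 0 in members of all 3 libraries, among them VGlut, ple, Trh and SerT, the gene the study targeted. Gad1 had UMIs in the early dSERT-TMKO/WT library alone, at 2.34 CPM, and VGAT was at 71.9, 85.6 and 105 CPM, near its level in the other classes. Predicted doublets were 0, 6 and 1 of the members, and 10, 1 and 11 barcode sequences were shared between pairs of libraries. The part of these other cells' RNA in the class differences below was not tested beyond leaving each library out in turn and refitting without predicted doublets.

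The main comparison asked which genes the rule does not read were higher or lower in α'/β' cells than in γ or α/β cells of the same libraries. UMIs were summed by library and class, and the 9 sums were fitted with edgeR's quasi-likelihood test with library as a term. A gene was called at a Benjamini-Hochberg adjusted p of at most 0.05 and a change of at least 1.5-fold. Of 6963 genes tested, 486 (6.98%) were higher and 466 (6.69%) lower than in γ cells, 13.7% in all. Against α/β cells 638 (9.16%) were higher and 609 (8.75%) lower, 17.9% in all. In the same direction against both classes, 326 (4.68%) were higher and 275 (3.95%) lower, 8.63% in all. Which direction held more genes depended on the settings. Lower genes were the majority with predicted doublets removed (291 higher and 316 lower), with DESeq2 (267 and 273) and with any library left out, and without the dSERT4/dSERT16 pool the counts were 212 and 255. The sign was the same in all 3 libraries for 941 of 952 genes called against γ and for 1237 of 1247 called against α/β. Each p measures how well a difference recurred over 3 pooled libraries, which are not separate biological replicates of a condition. Without the early dSERT-TMKO/WT library, 233 genes were higher and 261 lower than both classes, and 435 of these 494 were among the genes called with all 3 libraries.

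**Figure D2:**
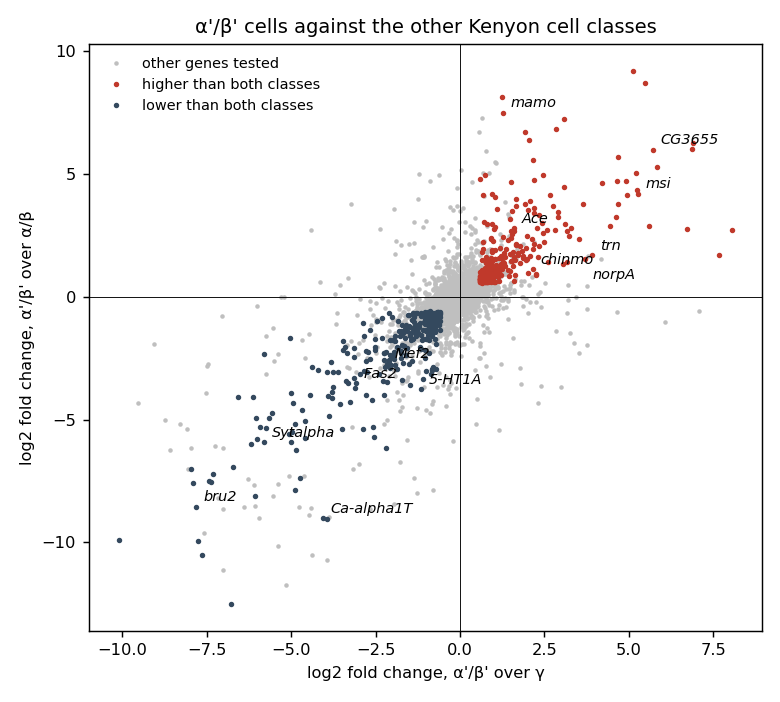
log2 fold change of α'/β' over γ cells (x axis) against that over α/β cells (y axis) for every gene tested, leaving out the genes the rule reads. The 326 genes higher than both classes are red and the 275 lower than both are dark blue, and the sums of α'/β' cells enter both axes.

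Most genes that led on the higher side were low in the other classes, and msi and CG32052 were the highest there. CG3655, of the X chromosome, was at 186, 202 and 130.3 CPM in members and at most 7.10 CPM in any other sum, 53.1-fold above γ and 63.9-fold above α/β cells (adjusted p 7.0e-07 and 6.3e-07). msi, which encodes the RNA-binding protein Musashi, was at 841, 613 and 1070.1 CPM. That was 38.7-fold the γ level and 18.4-fold the α/β level, with log2 fold changes of 5.28 (SE 0.27) and 4.20 (SE 0.26). app, a palmitoyltransferase of the planar polarity pathway, was at 275, 266 and 311 CPM against 13.3 to 16.0 CPM in γ and 6.13 to 19.1 CPM in α/β cells. For each of these genes the 3 member libraries lay above all 6 other sums. Genes here and below were named for large or called differences, which makes such separation likely. The share of all genes tested that separate this way was not counted.

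Ddr, a discoidin-domain receptor tyrosine kinase that binds collagen in mammals, was at 118, 68.0 and 71.3 CPM and no higher than 4.64 CPM in the other sums. smal was at 157, 137 and 164 CPM, ko at 98.7, 80.9 and 105 CPM, and sano, a planar polarity gene, at 199, 122 and 102 CPM, each at least 25.3 times its γ and its α/β level in the fit. dnr1, an E3 ubiquitin ligase that restrains caspases, was at 69.1, 70.3 and 74.6 CPM. CG11638 and CG32052 were at 124, 96.1 and 83.5 CPM and at 316, 157 and 234 CPM. These genes again showed no overlap between member sums and other sums. CG1368 was the least even of the leading genes, at 97.3, 22.3 and 86.9 CPM, lowest in the early dSERT-TMKO/WT library and still above the 1.76 CPM that no γ sum passed. Gr77a, of the gustatory receptor family, was at 67.7, 44.5 and 72.4 CPM against 2.96 to 10.3 CPM in γ cells and 0 to 0.834 CPM in α/β cells.

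Genes that led on the lower side were close to absent from α'/β' cells. bru2, a Bruno-family RNA-binding protein, was at 1.41, 0 and 2.23 CPM in members, 289, 245 and 281 CPM in γ cells and 464, 489 and 378 CPM in α/β cells. CG32547 had no UMI in members of any library, where 3 UMIs over all members set the floor, and stood at 162, 122 and 119 CPM in α/β cells, at least 110.0-fold higher. In γ cells it was itself low, at 2.24 to 3.08 CPM. These γ values lie under the level of 3 UMIs in each member library (4.23, 3.52 and 3.34 CPM). The separation of CG32547 from γ cells thus rests on few counts. Vsx1, a homeobox transcription factor, and CG42673 each had 1 UMI in all members together. lncRNA:CR46004 had 1 UMI too, against 69.3 to 133 CPM in γ cells and 53.4 to 122 CPM in α/β cells.

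Among vesicle proteins a pair of synaptotagmins stood out. Sytalpha was at 12.7, 3.52 and 11.1 CPM in members against 416 to 539 CPM in γ and 481 to 553 CPM in α/β cells (log2 fold changes of -5.79 (SE 0.22) and -5.91 (SE 0.22), adjusted p 1.0e-07 and 4.6e-08). Sytbeta was at 5.64, 3.52 and 1.11 CPM against 146 to 245 and 107 to 132 CPM. Both genes encode calcium-sensor relatives of the main vesicle synaptotagmin, and Syt1, that main form, was called in neither contrast, at 1959, 1874 and 1882 CPM in members and log2 fold changes of 0.02 (SE 0.08) and 0.25 (SE 0.08). bol, an RNA-binding protein best known from the testis, was at 26.8, 17.6 and 16.7 CPM against 518 to 757 and 1033 to 1242 CPM. CG34357 was at 7.05, 4.69 and 3.34 CPM against 321 to 379 and 263 to 356 CPM. The groups were apart in all of these genes, and also in CG11768, CG15097 and dpr5, a member of the Dpr family of cell-surface proteins, which were at 0 to 5.64 CPM in members and at 30.6 to 224 CPM elsewhere.

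**Figure D3:**
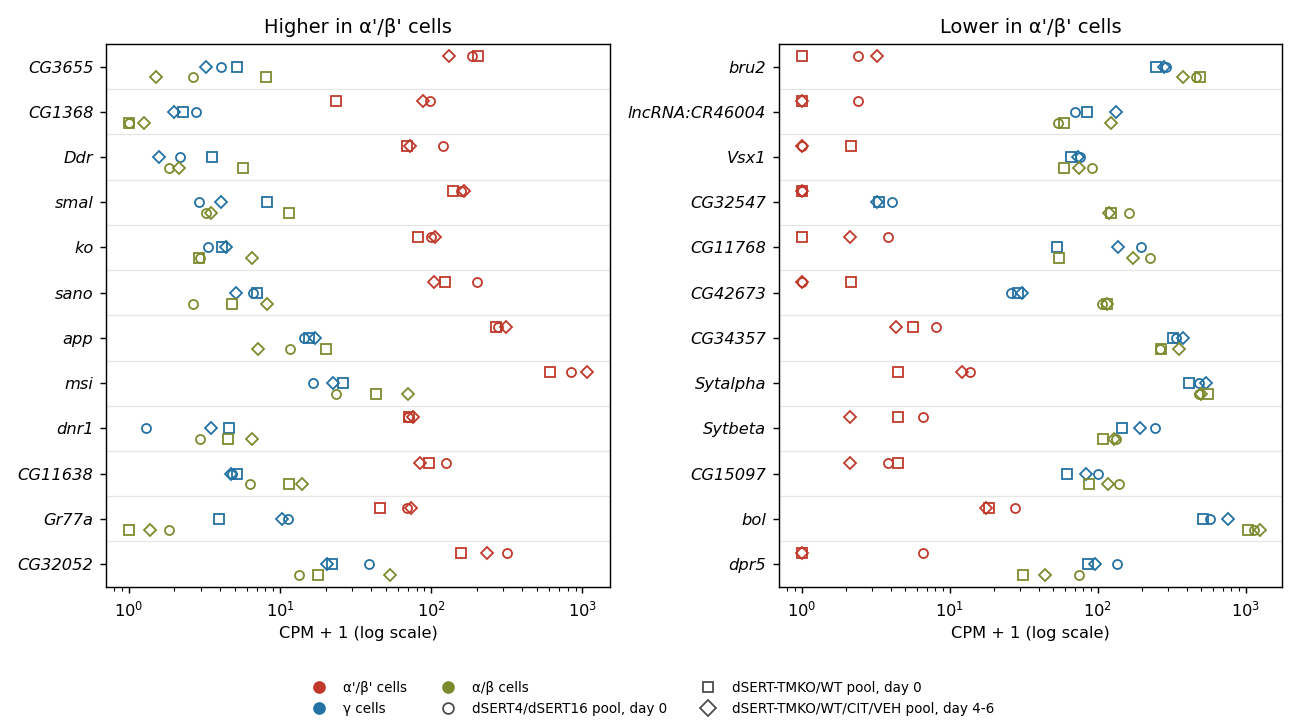
CPM + 1 (log axis; 1 on the axis is a count of 0) of the 12 leading higher and the 12 leading lower genes, by class (colour) and library (symbol). In each row the 3 α'/β' points stand apart from the 6 points of the other classes. For CG32547 the γ points lie under the level of 3 UMIs in each member library.

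The genes called against both classes lay on all the major chromosome arms. Higher genes were 66 of 1203 tested on 2L, 69 of 1370 on 2R, 69 of 1355 on 3L, 67 of 1678 on 3R and 50 of 1230 on X. Lower genes were 55, 50, 61, 58 and 50 in the same order. No test was made of these counts.

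Genes known to separate the KC classes, which the rule does not read, were among those called. Of 19 tested genes of a list on temporal and subtype identity, 3 were higher and 5 lower than both classes. The lower genes include Hr38 and sr, which the list of activity-regulated genes below counts again. The counts of the identity list and the later lists are to be read against the 4.68% higher and 3.95% lower over all genes tested, and no list was tested as a set. mamo, a BTB zinc-finger factor needed for α'/β' identity, was at 16321, 12669 and 15692 CPM in members, 6433, 4776 and 6485 CPM in γ cells and 72.3, 83.0 and 77.8 CPM in α/β cells. It was 2.44-fold above γ (adjusted p 1.8e-05) and 182-fold above α/β (adjusted p 1.2e-09). chinmo, a BTB factor that acts in the birth-order series upstream of mamo, was at 2013, 1466 and 1630.2 CPM, 4.51-fold above γ and 2.18-fold above α/β cells.

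Other identity genes were lower. Mef2, whose enhancer drives the GFP that was sorted on, was at 343, 266 and 315 CPM in members, 1468, 1256 and 1266 CPM in γ cells and 2056, 1975 and 1795 CPM in α/β cells, 4.48-fold and 6.62-fold lower. The 3 member libraries lay below all others. pros, a homeobox factor, was at 1677, 1706 and 2735 CPM, against 3363 to 4413 CPM in γ and 11598 to 20131 CPM in α/β cells. The nuclear receptor gene Hr39 was lower too, at 55.0, 69.2 and 83.5 CPM. Eip93F, an ecdysone-response factor, was between the classes, at 1666, 1356 and 1573 CPM against 864 to 1145 CPM in γ and 4866 to 6844 CPM in α/β cells. rn, a zinc-finger gene, was at 216, 156 and 217 CPM, 67.8-fold above γ cells and 2.04-fold below α/β cells. toy, a paralogue of eyeless, was called in neither contrast, with log2 fold changes of -0.05 (SE 0.08) and -0.27 (SE 0.08).

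Adhesion and guidance genes, which sort KC axons into their lobes, formed the longest list. Of 42 tested, 6 were higher and 10 lower than both classes, and the medians of the list were -0.24 against γ and -0.11 against α/β on the log2 scale, where all genes had 0.02 and 0.03. Fas2, the adhesion protein by which α/β and γ lobes are told from α'/β' lobes, was at 102, 73.9 and 124 CPM in members, 1089, 569.6 and 819.6 CPM in γ and 1340.3, 864 and 1099 CPM in α/β cells. It was 8.39-fold and 11.5-fold lower (adjusted p 1.2e-07 and 3.7e-08). Nrg, the neuroglian adhesion protein, was at 229, 143 and 124 CPM and was lower by log2 fold changes of -1.65 (SE 0.11) and -2.01 (SE 0.11). The netrin receptor unc-5 was at 7.05, 2.34 and 3.34 CPM against 36.3 to 54.9 CPM in γ and 74.8 to 87.4 CPM in α/β cells. Con, klg, Nlg2, Dscam4, Ten-a, Ten-m and Toll-6 were also lower than both.

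On the other side, trn, a leucine-rich repeat protein, was at 951, 457 and 624 CPM, 15.2-fold above γ and 3.23-fold above α/β cells. Drl-2, a Ryk-family Wnt receptor, was at 422, 245 and 373 CPM against 63.3 to 90.9 CPM in γ and 17.2 to 38.1 CPM in α/β cells, and its relative drl at 76.2, 57.4 and 88.0 CPM was 1.87-fold and 2.00-fold higher. Of the same list, Fas3, CadN and beat-IV were higher than both classes as well. CadN, the neural cadherin, was at 324, 273 and 362 CPM in members and at 163 to 171 and 109 to 177 CPM in the others. Some genes went opposite ways. Nlg4, a neuroligin, was 3.89-fold below γ and 11.9-fold above α/β cells, and Toll-7 and Sema2b took the same direction.

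Of 7 transmitter genes tested, 1 was higher than both classes and none lower. ChAT, VAChT and ChT, which make, load and recover acetylcholine, were at 229, 247 and 165 CPM, 963, 899 and 671 CPM and 401, 202 and 248 CPM in members and were called in neither contrast. Ace, the acetylcholinesterase that clears the transmitter, was at 405, 479 and 344 CPM against 125, 140.3 and 119 CPM in γ and 53.4, 72.4 and 45.3 CPM in α/β cells. It was 3.06-fold and 6.93-fold higher, with adjusted p of 1.3e-06 and 3.7e-08. Ddc, the decarboxylase of dopamine and serotonin synthesis, was called in neither contrast.

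Of 11 acetylcholine receptor genes tested, the nicotinic subunits nAChRalpha6 and nAChRalpha7 were higher and the muscarinic receptors mAChR-A and mAChR-B lower than both classes. nAChRalpha7 was at 1112, 933 and 875 CPM against 379.9 to 514 CPM in γ and 40.0 to 87.1 CPM in α/β cells, and nAChRalpha6 at 4565, 5194 and 5879.5 CPM was 1.57-fold and 3.61-fold higher. mAChR-A, known from fly KCs to dampen odour responses, was at 84.6, 59.8 and 122 CPM against 217 to 254 and 268 to 317 CPM. mAChR-B was at 142, 84.4 and 100.2 CPM, 2.24-fold below γ and 4.36-fold below α/β cells. The member sums did not overlap the others for any of these 4 genes, which were named because they were called. Subunits nAChRalpha4, nAChRalpha5 and nAChRbeta2 were called in neither contrast.

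Of the serotonin receptors, whose ligand is the transmitter the study manipulated, 5 were tested. 5-HT1A, coupled to inhibition of adenylyl cyclase, was at 109, 86.7 and 121 CPM in members, 288, 215 and 192 CPM in γ and 1824, 1414 and 974 CPM in α/β cells, 2.22-fold lower than γ (adjusted p 8.7e-04) and 13.4-fold lower than α/β (adjusted p 1.6e-07). 5-HT1B, of the same coupling, was at 394, 163 and 216 CPM in members. It was 2.43-fold above α/β cells, and against γ cells its log2 fold change was -0.39 (SE 0.15) with an adjusted p of 0.094, which did not pass. 5-HT2A and 5-HT2B each had 1 UMI in all members, in the day 4 to 6 pool. 5-HT2A was called lower than in γ cells, at 10.3 to 36.3 CPM there, and 5-HT2B lower than in α/β cells, at 9.39 to 23.1 CPM. 5-HT7 had UMIs in the early dSERT-TMKO/WT library alone (7.03 CPM), where glia markers were highest.

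Receptors for octopamine and tyramine were lower than in both classes for 3 of 7 tested. Oamb, an octopamine receptor needed for reward learning, was at 69.1, 28.1 and 46.8 CPM, 4.50-fold below γ and 11.1-fold below α/β cells, with no overlap. Octalpha2R was at 83.2, 48.1 and 91.3 CPM against 379 to 492 CPM in γ and 158 to 192 CPM in α/β cells, and TyrR had 2 UMIs in all members. Octbeta3R was placed between the classes, at 118, 71.5 and 44.5 CPM against 13.4 to 39.9 and 357 to 818 CPM. Of the dopamine receptors, none of the 3 tested was called in the same direction against both. Dop1R1, the receptor on which aversive learning depends, was at 842, 755 and 951 CPM, 1.59-fold below γ and with a log2 fold change of -0.04 (SE 0.09) against α/β cells. Dop2R and DopEcR were called in neither contrast.

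Among receptors for GABA and glutamate, Nmdar1 was higher and GluClalpha and GluRIB lower than both classes, of 10 tested. Nmdar1, the obligatory NMDA receptor subunit, was at 151, 150.0 and 138 CPM against 33.8 to 51.6 CPM in γ and 47.8 to 60.3 CPM in α/β cells, while its partner Nmdar2 was at 49.4, 68.0 and 64.6 CPM and 1.96-fold below γ cells. GluClalpha, the glutamate-gated chloride channel, was at 197, 122 and 242 CPM, 1.81-fold below γ and 8.76-fold below α/β cells. Rdl, the main GABA-A receptor subunit of KCs, was at 9238, 6553 and 6359 CPM, with a log2 fold change of 0.45 (SE 0.09) against γ, which is under 1.5-fold, and of -0.60 (SE 0.09) against α/β cells.

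Of 23 listed neuropeptide precursors 14 were at 0 in members of all libraries, 7 were tested, 2 were lower than both classes and none was higher. spab, the precursor of several short peptides, was at 22.6, 15.2 and 11.1 CPM against 129 to 187 CPM in γ and 145 to 217 CPM in α/β cells, and Nplp1 at 1.41, 3.52 and 5.57 CPM was also lower than both. Of 14 peptide receptors tested, 4 were lower and 1 higher than both. The lower ones were TkR86C, SIFaR and the pair of cholecystokinin-like receptor genes CCKLR-17D1 and CCKLR-17D3, which had 2 UMIs and 1 UMI in all members. AstA-R1, an allatostatin A receptor, was higher at 19.7, 11.7 and 11.1 CPM, a low level, with log2 fold changes of 1.47 (SE 0.35) and 1.76 (SE 0.38).

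The cAMP pathway joins dopamine to odour learning in KCs. Of its 23 genes tested, 3 were higher and 3 lower than both classes, where all genes had 4.68% and 3.95%. Epac, an exchange factor switched on by cAMP, was at 298, 224 and 425 CPM against 46.3 to 87.1 CPM in γ and 3.88 to 28.7 CPM in α/β cells. Pka-R2, a regulatory subunit of protein kinase A, was at 2466, 2039 and 2189 CPM, 2.37-fold and 2.78-fold lower. Pde8, which breaks cyclic nucleotides down, was at 80.4, 55.1 and 51.2 CPM, 1.77-fold and 7.91-fold lower. Pka-C3, a kinase catalytic subunit, separated α/β cells from the rest, at 917, 1022 and 854 CPM in members, 503 to 702 CPM in γ and 1.37 to 18.6 CPM in α/β cells. rut and dnc, the cyclase and phosphodiesterase found as learning mutants, stayed under 1.5-fold in both contrasts, at 1829, 993 and 2097 CPM and 4713, 3317 and 4367 CPM. rg, an anchor protein for the kinase, and PKD were higher, and the anchor Akap200 lower, all at low levels.

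norpA, the phospholipase C of fly phototransduction, was at 1021, 980.0 and 1058 CPM in members, 61.7, 94.1 and 71.7 CPM in γ and 299, 358 and 338 CPM in α/β cells, 13.1-fold and 2.95-fold higher (adjusted p 5.2e-08 and 4.2e-06). The 3 member values lay within 980.0 to 1058 CPM. Of the opsin and phototransduction markers of photoreceptors, ninaE, chp and ninaC were at 0 in members, and trp had 1 UMI.

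Of 19 potassium channel genes tested, 1 was higher and 2 lower than both classes, against 4.68% and 3.95% of all genes, and nothing is read from so few. Ih, the hyperpolarization-activated channel, was at 1655, 1212 and 1164 CPM, 1.72-fold above γ and 1.62-fold above α/β cells. slo, the large-conductance calcium-activated channel, was at 1961, 1512 and 2256 CPM, 1.93-fold and 2.96-fold lower, and KCNQ, the M-type channel, at 8.46, 4.69 and 16.7 CPM was 5.94-fold and 39.3-fold lower. SK, the small-conductance calcium-activated channel, and eag were higher than in γ cells (1.62-fold and 3.05-fold) and were not called against α/β cells. Sh, Shab and Shaw were called in neither contrast. Of the sodium and calcium channels, Ca-alpha1T, the T-type channel, was at 8.46, 1.17 and 2.23 CPM against 32.0 to 89.0 CPM in γ and 1318 to 2210.0 CPM in α/β cells. para and cac, the main sodium and presynaptic calcium channels, were called in neither.

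At the release site, Rim and CASK were lower and dlg1 higher than both classes, of 20 genes tested that also hold Sytalpha. Rim, which tethers calcium channels at active zones, was at 1262, 973 and 1066 CPM, 2.26-fold below γ and 4.08-fold below α/β cells. CASK, a scaffold kinase, was at 279, 217 and 258 CPM, 2.63-fold and 3.26-fold lower. brp, the core protein of the active zone, was at 1577, 1318 and 1637 CPM, not called against γ and 1.75-fold below α/β cells. Levels of dlg1, a scaffold of synapses, were 3344, 2442 and 2174 CPM, highest within each library but overlapping between libraries. nSyb, Snap25, unc-13 and Syt7 were called in neither contrast.

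**Figure D4:**
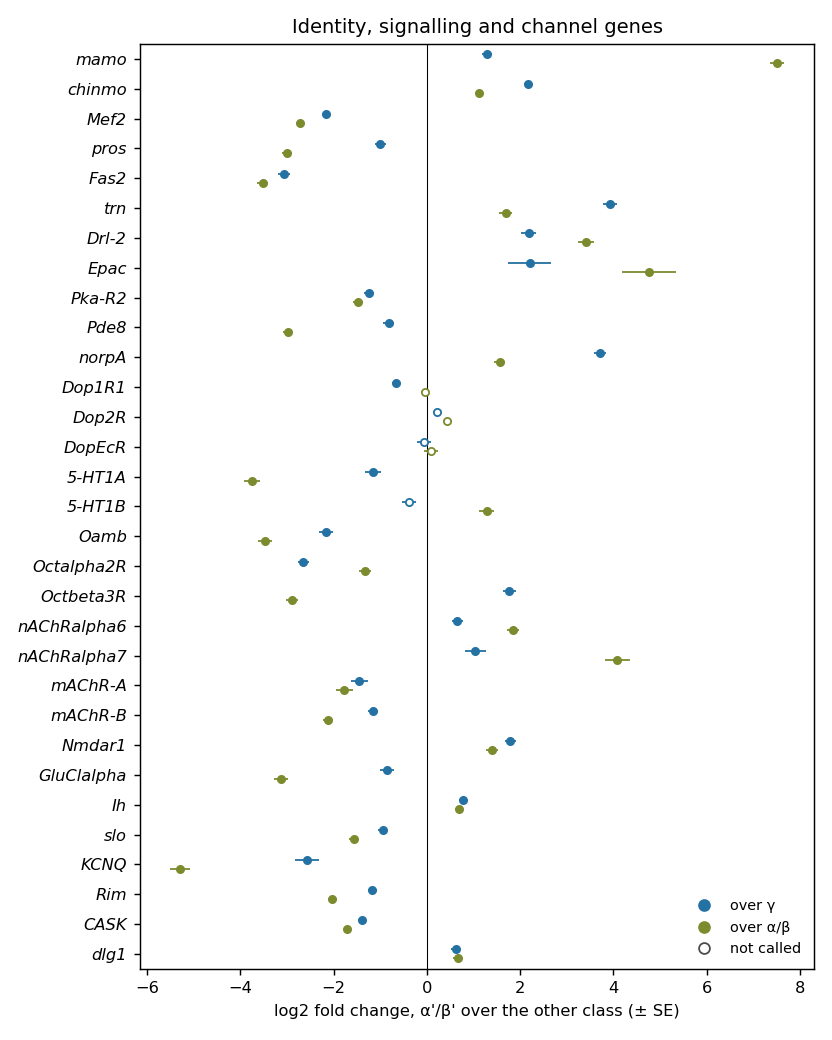
log2 fold change (± SE derived from the edgeR F statistic) of α'/β' over γ (blue) and over α/β cells (olive) for the named genes, with filled points for called differences. Fas2, Mef2, 5-HT1A and KCNQ lie left of 0 in both contrasts, trn, norpA and Epac right of 0 in both, and Dop2R and DopEcR are uncalled.

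Activity-regulated and heat shock genes that were called against both classes were lower in members. Of 9 activity-regulated genes tested Hr38 and sr, which neurons switch on after firing, were lower than both classes and none was higher. Hr38 was at 819.5, 186 and 1215 CPM in members, 1829, 262 and 1559.7 CPM in γ and 2589, 232 and 2800.0 CPM in α/β cells, so within each pool members were lowest while the early dSERT-TMKO/WT library was lowest in every class. Its log2 fold changes were -0.75 (SE 0.22) and -1.19 (SE 0.22), with adjusted p of 0.033 and 0.0024. Of 13 heat shock genes tested, Hsp23, Hsp26 and Hsp70Bc were lower than both classes. Hsp26 was at 379, 108 and 108 CPM in members and 827, 194 and 437 CPM in γ cells, highest in the dSERT4/dSERT16 pool in each. Copies of the Hsp70 family are near-identical, so the count of Hsp70Bc may not give the level of that copy reliably.

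How members differed among themselves was described by the variance of each gene's UMIs over cells, divided by the variance that sampling of each cell's total would give. Over 2510 genes with at least 0.2 UMIs per cell in every library the median of the lowest ratio over libraries was 1.03, close to sampling alone, and 57 genes reached a ratio of 2 in all 3 libraries. With cells thinned to 2000 UMIs 14 of 1387 genes reached it, and the ratio is by construction larger at more UMIs per cell. The leading genes were lncRNA:noe with a lowest ratio of 17.7 and mt:lrRNA with 16.6. At matched depth these were 5.25 and 5.57, and with predicted doublets removed 12.2 and 16.7, so that their order turned. Of the 10 with the largest ratios, mt:lrRNA, mt:CoIII, mt:CoI, mt:CoII and mt:ATPase6 are mitochondrial transcripts, and lncRNA:CR34335 and lncRNA:noe are noncoding RNAs. lncRNA:CR34335 fell from 12.0 to 3.93 once predicted doublets were removed.

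Hsp26, Hr38 and mamo completed those 10. Hsp26 was unseen in 56.2, 83.8 and 70.2% of members while its highest cell held 34 UMIs in the dSERT4/dSERT16 pool, and the top 10% of cells held 68.4, 93.5 and 75.3% of its UMIs. Hr38 had a lowest ratio of 6.87, with 21.6, 66.7 and 3.51% of members without a UMI. mamo was found in every member of all 3 libraries, at 71.4, 103 and 124 UMIs per cell, and its lowest ratio of 6.70 was 2.44 at matched depth. The receptor genes nAChRalpha6 (4.39) and Rdl (4.34) also varied more than sampling, and stayed above 2 when thinned. zfh2, chosen after its values were seen, was unseen in 92.6, 85.7 and 90.4% of members and reached 8, 24 and 11 UMIs in a single cell.

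The pool at day 4 to 6 was set beside the pools at day 0 within α'/β' cells, as values without a test. Age, pool, sort, genotype mix and the strain origin of the chromosomes cannot be told apart. Of 2935 genes at 50 CPM or more, 30 (1.02%) were at least 2-fold higher at day 4 to 6 than in both day 0 pools and 16 (0.545%) were at least 2-fold lower. At 2-fold, 72 genes were higher in the dSERT4/dSERT16 pool than in the early dSERT-TMKO/WT library and 209 the other way. That comparison sets 1 pool against 1 other, while the rule for day 4 to 6 asks for the fold against both day 0 pools. The criteria are unlike, so these counts do not measure whether pools or ages differ more. The rule for day 4 to 6 gave 4 higher and 15 lower genes in γ cells and 24 and 23 in α/β cells, from the same libraries. Of the 16 lower genes in members, 9 were lower in γ and 12 in α/β cells too, and of the 30 higher genes 2 and 4 were shared.

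sty, an inhibitor of receptor tyrosine kinase signalling, was at 186, 58.6 and 618 CPM in members, highest at day 4 to 6 with a Poisson 95% interval of 568 to 672 CPM. In γ cells sty was at 351, 178 and 678 CPM and in α/β cells at 216, 64.4 and 210 CPM. ru, a protease that releases EGF receptor ligands, was at 16.9, 16.4 and 61.2 CPM in members, and at no more than 5.42 CPM in any other class. Hsc70-3, a chaperone of the endoplasmic reticulum, was at 100.1, 80.9 and 268 CPM. In these genes the interval at day 4 to 6 (46.1 to 79.7 CPM for ru and 236 to 304 CPM for Hsc70-3) lay above those of both day 0 pools. The activity-regulated gene sr was at 117, 38.7 and 303 CPM and HmgD, a chromatin protein, at 25.4, 50.4 and 130.3 CPM. CG32581 was at 4.23, 24.6 and 100.2 CPM, the higher gene with the largest fold over the nearer day 0 pool. It passed the fold in the other classes too, at 5.13, 14.7 and 58.9 CPM in γ and 6.67, 16.1 and 68.8 CPM in α/β cells. The study lists CG32581 as differing between dSERT-TMKO and WT in aged flies, in a γ and an α/β cluster. The part of genotype in the pool values of CG32581 was not tested. CG33217, CG14431, CG15539 and CG12945 also passed the fold, at 50.1 to 99.1 CPM at day 4 to 6.

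On the lower side Obp44a, of the odorant-binding protein family, was at 368, 2691 and 5.57 CPM in members. CG9686 was at 93.1, 462 and 8.91 CPM and CG8369 at 111, 1758 and 33.4 CPM. All of these were highest in the early dSERT-TMKO/WT library, and their order of the pools is that of the summed glia markers above. So was nrv2, at 192, 889 and 75.7 CPM. It is 1 of the 8 glia markers and makes up most of their sum in members, so its match to that order is built in. The same order held for Obp44a in γ cells, at 531, 3303 and 3.49 CPM. The part of glial RNA in these differences was not tested. Ald1 and Tpi had overlapping intervals in the day 0 pools. Ald1, an aldolase, was at 1299, 1277 and 443 CPM, with intervals of 1217 to 1386, 1202 to 1355 and 401 to 489 CPM. Tpi, triosephosphate isomerase, was at 561, 545 and 183 CPM. Both were lower in the other classes too. Ald1 was at 1372, 1584 and 605 CPM in γ and 1724, 1856 and 370 CPM in α/β cells. Tpi was at 383, 500 and 153 CPM in γ and 515, 545 and 135 CPM in α/β cells. In members Gapdh2, at 515, 681 and 210.5 CPM, and CAP, at 128, 70.3 and 24.5 CPM, differed between the day 0 pools beyond their 95% intervals, in opposite directions. GlyP, glycogen phosphorylase, was at 79.0 and 52.8 CPM at day 0 and 2.63-fold lower than the nearer of these at day 4 to 6, and CG31324 was at 234, 191 and 74.6 CPM.

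**Figure D5:**
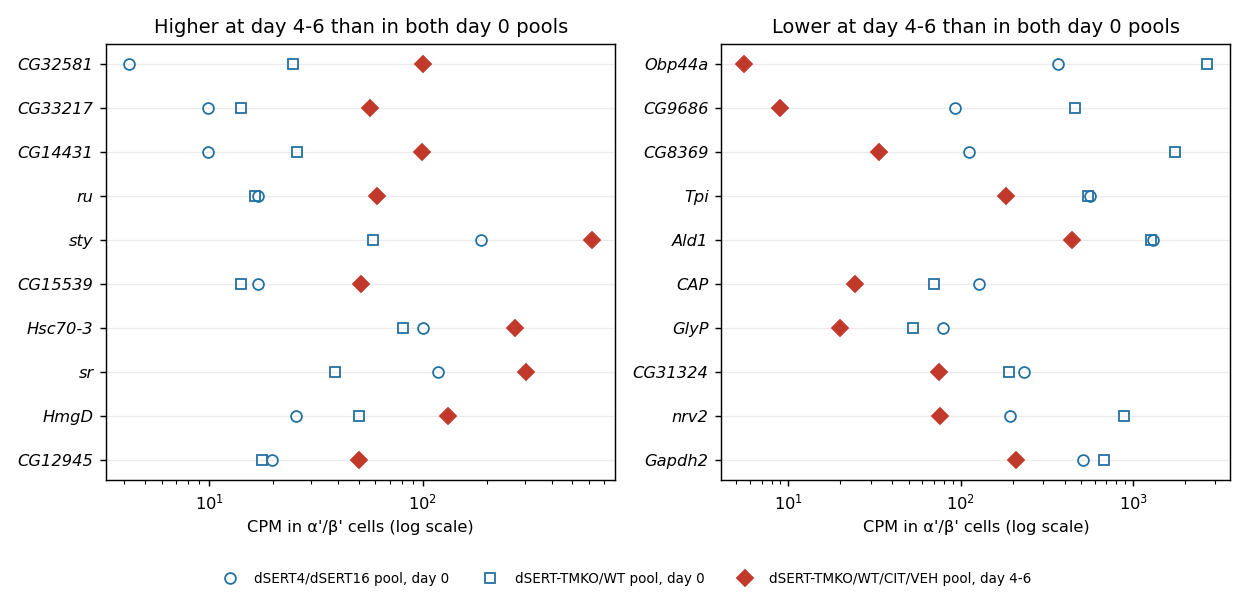
CPM in α'/β' cells (log axis) of the 10 leading genes that were higher (left) and lower (right) at day 4 to 6 than in both day 0 pools, 1 point to a library. The filled point lies outside the open points in every row, and for Obp44a, CG9686, CG8369 and nrv2 the open points themselves are far apart.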

How the data were processed

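Central brain cells sorted for nuclear GFP were profiled with 10x Genomics 3' libraries. Per the labels, the authors used Cell Ranger 7.0.0 with the dm6 genome, and they deposited filtered matrices of raw UMI counts per gene and barcode, without normalization. The authors also deposited 4 tables of their own genotype and drug comparisons (fold changes and p-values by cluster), which were not used. Cells were assigned to strains in the study from SNPs, and no such map was used here.

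Barcodes of 1000 UMIs or more, with up to 20% of them mitochondrial, were classed by the marker rule given at the start. The members and gene lists were chosen with earlier results of these data known. Each library was 1 sample, and nothing in the labels made the libraries replicates of a condition. The p-values measure how evenly a class difference recurred over the 3 pools. Differences in level between the pools themselves were taken out by the library term. Counts were summed by library and class (9 sums) and fitted in edgeR 4.0.16 (R 4.3.3; TMM, filterByExpr, class plus library, glmQLFTest), with Benjamini-Hochberg adjustment over 6963 genes. The 21 genes the rule reads were in the fit but were not called. Each SE was derived as the absolute log2 fold change divided by the square root of the F statistic. The fit was tested on simulated data. CPM is a gene's summed UMIs scaled to 1000000 UMIs of that class and library. Genes named by rule were the 12 higher and 12 lower of those called against both classes at 50 CPM or more, with the largest smaller fold change, then members of the lists, and the 10 leading genes for age (each direction) and for variation. The UMI totals in the text set the precision, and intervals at 95% cover counting error only. Doublets were predicted with Scrublet (scanpy 1.11.5: 5, 326 and 26 barcodes) and kept, with their removal as an alternative. Identifiers of 17738 of 17824 features were placed on BDGP6 (release 6). No sequences are printed. Alternatives were other UMI, mitochondrial, marker and KC thresholds, DESeq2 1.42.0, no low-count filter, no library term and each library left out.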

Additional observations from a re-analysis of the deposited data

How the results depend on the processing

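Leaving out 1 library at a time gave 748 to 857 genes called against γ cells (952 with all), 1051 to 1105 against α/β cells (1247) and 467 to 531 in the same direction against both (601). Dropping the library term lowered these counts to 370, 648 and 237, of which 369, 647 and 235 were among the main calls. Without the filter on low counts the share of higher genes fell from 51.1% to 36.4% against γ, from 51.2% to 42.8% against α/β and from 54.2% to 40.3% for both. It was also under 50% for all 3 counts in every other fit but those with at least 2000 UMIs or a marker sum of 5, and was 42.5 to 46.0% against γ with 1 library left out. The median log2 fold change of all genes moved to -0.21 against γ and -0.14 against α/β when low counts were not filtered. DESeq2 and the other cell thresholds kept each count within 1.5 times. All 24 leading genes kept their direction and call in 576 of 576 comparisons, which count each gene and contrast in each alternative fit. These fits reuse the counts from which the genes were picked. Classes were paired within a library by the library term of the main fit, and no pairing of the groups was possible, as each is 1 library.

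Shares of α'/β' cells moved outside their intervals with a KC threshold of 1% (3.16%, 2.33% and 3.01%) and, in both day 0 pools, without CG8641 in the sum (3.55% and 3.34%). The 46 genes past the age fold became 9 at 3-fold and 22 at a minimum of 100 CPM. Genes with a variance ratio of 2 went from 57 to 14 when cells were thinned to 2000 UMIs. The glia marker sum without predicted doublets was an alternative chosen after seeing the data. Few cells limit low genes: 3 UMIs over members of 1 library are 4.23, 3.52 and 3.34 CPM.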

Other observations

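Some barcodes met the α'/β' marker rule but fell under the KC threshold, and so were left out of the members. They numbered 7, 40 and 0 in the dSERT4/dSERT16 pool, the early dSERT-TMKO/WT library and the day 4 to 6 pool. Just under that threshold, at 0.25 to 0.5% of UMIs, were 2, 10 and 0 of them.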
